A study of Mus musculus with 6 samples.

Results

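The genes described here encode the proteins of synaptic vesicles and of the SNARE machinery that fuses vesicles with their target membrane, measured in the visual cortex of adult mice 4 days after 1 eye was removed. They were chosen by name, from probe sets with 1 gene symbol in the platform annotation: synaptotagmins (Syt), syntaxins (Stx) and syntaxin-binding proteins (Stxbp), VAMPs, SNAPs, synapsins (Syn), synaptophysin (Syp), complexins (Cplx), Rab3, Sv2, Nsf, Napa, Napb and Napg, Rims and Rph3a. The naming rule itself uses no measured value. The names matched 67 of 12488 probe sets and 52 of 8251 named genes. For a gene on several probe sets, the brightest over all arrays stood for it. The pattern also took in 5 Rab GTPases whose names only begin like Rab3 (Rab31, Rab33a, Rab33b, Rab34 and Rab35) and Snap91, a clathrin adaptor of synaptic endocytosis that is not a SNARE.

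All animals were wild-type mice of the C57Bl6 strain. Per the labels' protocols, 4 mice lost 1 eye at P100 (postnatal day) and were killed at P104. The deprived group (3 arrays) is cortex contralateral to the removed eye, which lost its main input. The non-deprived group (3 arrays) is cortex ipsilateral to it, in animals that also underwent the operation, so no array here comes from an unoperated mouse. The design text speaks of pooled samples without saying how many mice each array holds. The p-values and intervals here cover just the variation among these samples, part or all of which may be technical.

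A synaptic vesicle is filled with transmitter, docked at the active zone and primed. Priming zips the vesicle SNARE (a VAMP) together with a syntaxin and SNAP-25 of the plasma membrane. Synaptotagmin senses calcium and triggers fusion with the help of complexin, while syntaxin-binding proteins chaperone syntaxin. The ATPase Nsf and its SNAP adaptors then take the SNARE complex apart so that its parts can be used again, and Rab3 with its effectors guides vesicles to the release site. Other SNAREs of the same families serve traffic through the endoplasmic reticulum, Golgi apparatus, endosomes and lysosomes of all cells.

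Values are MAS5 signal, a brightness with no fixed unit, which can be compared between arrays for 1 probe set but not between probe sets. Median signal lay between 202.8 and 219.7 on the 6 arrays. Signal of the 18S ribosomal RNA control (its 3′ probe set) was 2689 in non-deprived replicate 3, against 661 to 981 elsewhere. Of the 52 genes, 41 had a mean signal of at least 134.7, the floor set by testing the top 60% of probe sets, and were compared on log2(signal + 16) with limma. The other 11 were too dim to test. Among other genes of release, Syn1, Sv2a, Sv2b, Rims1 and Rph3a were not analysed here. In probe set names, _f marks probes shared by related sequences, and _i and _r mark sets for which fewer or less selective probes were found. Log2 changes are given as deprived minus non-deprived on the log2(signal + 16) scale, which understates the change of dim genes. Counts of genes with a lower or higher mean use the mean on this scale. Its direction can differ from that of the mean signal, as for Snap91 (1016.2 non-deprived, 1021.3 deprived, counted as lower). In bulk tissue, a change in the number of cells of a type cannot be told apart from a change in RNA per cell.

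None of the 41 tested vesicle and SNARE genes passed the threshold of an adjusted p under 0.05 (limma, adjusted over 7453 probe sets). The smallest adjusted p among them was 0.949, for Napa, Rab3a and Stx6. Over all probe sets tested, 13 passed (0.174%), 12 lower (0.161%) and 1 higher (0.0134%), and over all genes by their brightest probe set 11 of 5653 passed (0.195%). Without adjustment, 3 of the 41 genes had a p under 0.05 (7.32%), against 5.18% of all genes: Napa, a SNARE disassembly adaptor, was lower in deprived arrays, and the vesicle GTPase Rab3a and the Golgi syntaxin Stx6 were higher. Of the 41 genes, 25 had a lower and 16 a higher mean log2(signal + 16) in deprived arrays (39.0% higher, against 52.6% of all genes). Their median log2 change was -0.03, against 0.01 over all genes tested. The arrays of the groups did not overlap for 7 of the 41 genes (17.1%), against 10.4% of all genes. Napa and Rab33a were lower, and Rab34, Stx6, Syt4, Syt17 and Vamp8 higher, in all deprived arrays. The largest differences in each direction were 0.73 for Rab3a and -0.34 for Rab33a. The median without regard to sign was 0.12, against 0.13 over all genes.

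**Figure D1:**
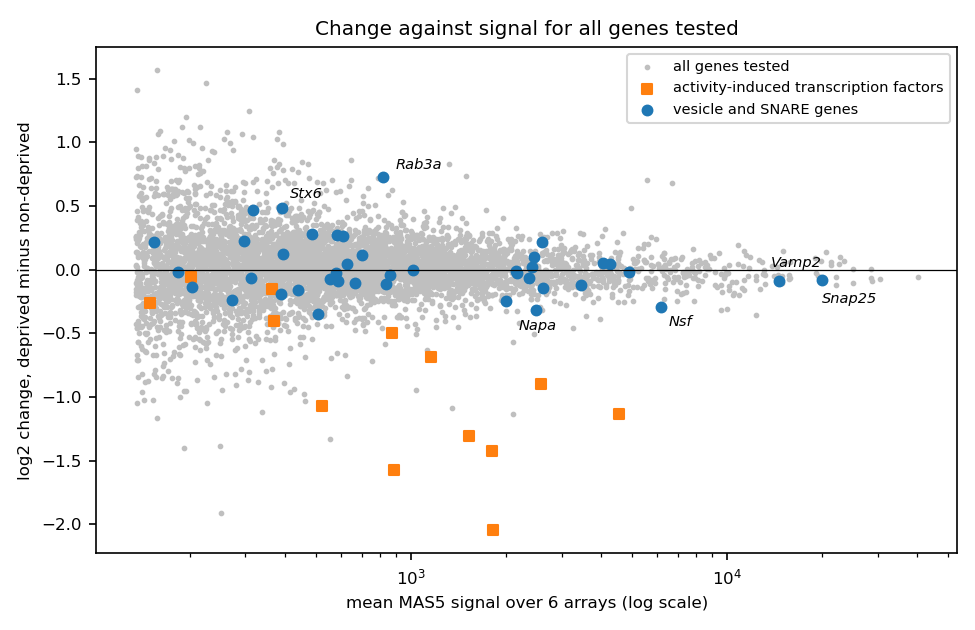
Log2 change (deprived minus non-deprived, log2(signal + 16), vertical axis) against mean MAS5 signal over 6 arrays (horizontal axis, log scale) for each gene's brightest tested probe set. The 41 vesicle and SNARE genes (blue circles) lie between -0.34 and 0.73, among the 5653 genes tested (grey), while 6 of 13 activity-induced transcription factors (orange squares) passed the threshold as lower.

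The same fit called large differences elsewhere on these arrays, in a list chosen with earlier results of these data known. Among 13 tested activity-induced transcription factors, whose transcription follows synaptic activity rapidly, all had a lower mean in deprived arrays. Of these factors 6 passed the threshold, and the median log2 change was -0.90. Fos, the best known of them, read 2837, 2784 and 3217 in non-deprived arrays and 758, 602 and 749 in deprived arrays. This log2 change of Fos, -2.05, was the lowest of all 5653 genes tested. It lies outside the 95% interval of each of the 41 vesicle and SNARE genes tested. The intervals of 4941 of all genes lay within 2-fold and exclude it too, so this is not particular to the members.

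The promoters of Napa, Rab3a and Stx6, the members with an unadjusted p under 0.05, are printed to show which letters of the binding sites of activity-dependent factors they hold. Those of Syn2 and Cplx1, core release genes with a log2 change near 0, were added after their Egr site was seen. Rab3a and Syn2 each have 2 windows in the table. The first is printed, and the other held 0 motif matches. Fos pairs with Jun proteins on the AP-1 site and Egr1 binds a GC-rich site, and CREB binds the cAMP response element (CRE). Each window runs from 250 bases before to 50 bases after the start site, 5′ to 3′ on the gene's strand, from RefSeq (GRCm38.p6), and capitals mark a match. The windows are Napa chr7:16098330-16098629 (+), Rab3a chr8:70754453-70754752 (+), Stx6 chr1:155158453-155158752 (+), Syn2 chr6:115134652-115134951 (+) and Cplx1 chr5:108549978-108550277 (-).
Napa: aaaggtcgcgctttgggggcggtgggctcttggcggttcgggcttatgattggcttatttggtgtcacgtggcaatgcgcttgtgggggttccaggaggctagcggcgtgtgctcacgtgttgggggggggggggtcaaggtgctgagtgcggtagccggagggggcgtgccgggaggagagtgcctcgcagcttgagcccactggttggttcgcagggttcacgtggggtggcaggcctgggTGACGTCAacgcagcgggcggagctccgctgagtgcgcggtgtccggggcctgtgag
Rab3a: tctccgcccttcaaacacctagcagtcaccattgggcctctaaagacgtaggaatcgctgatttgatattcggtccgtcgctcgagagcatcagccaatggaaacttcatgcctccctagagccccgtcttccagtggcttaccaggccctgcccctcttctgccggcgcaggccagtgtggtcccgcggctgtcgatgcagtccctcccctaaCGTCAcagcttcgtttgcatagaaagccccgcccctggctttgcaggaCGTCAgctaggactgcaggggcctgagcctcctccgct
Stx6: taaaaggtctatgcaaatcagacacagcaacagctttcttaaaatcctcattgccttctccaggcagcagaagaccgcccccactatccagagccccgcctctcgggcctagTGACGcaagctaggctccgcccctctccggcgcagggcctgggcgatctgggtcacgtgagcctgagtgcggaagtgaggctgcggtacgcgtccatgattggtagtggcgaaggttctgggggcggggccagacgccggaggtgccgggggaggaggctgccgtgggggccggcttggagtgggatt
Syn2: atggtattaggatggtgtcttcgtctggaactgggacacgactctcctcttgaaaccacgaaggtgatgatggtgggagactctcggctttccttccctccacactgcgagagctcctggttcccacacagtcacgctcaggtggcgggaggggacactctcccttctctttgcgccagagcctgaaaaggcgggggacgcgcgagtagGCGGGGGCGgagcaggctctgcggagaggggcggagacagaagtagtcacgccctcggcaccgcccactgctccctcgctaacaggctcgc
Cplx1: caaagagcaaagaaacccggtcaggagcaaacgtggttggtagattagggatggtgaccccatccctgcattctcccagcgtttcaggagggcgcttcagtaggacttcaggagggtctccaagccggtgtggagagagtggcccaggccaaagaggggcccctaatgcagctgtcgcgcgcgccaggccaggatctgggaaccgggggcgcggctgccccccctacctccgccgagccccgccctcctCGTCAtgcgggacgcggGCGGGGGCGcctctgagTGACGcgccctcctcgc

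The motifs searched on both strands were the CRE TGACGTCA, its core TGACG, which is part of it, AP-1 TGANTCA, and the Egr sites GCGGGGGCG and GCGTGGGCG. Of 52 member genes 44 had a window, 61 windows in all. Napa held the full CRE at bases 244 to 251 of its window, which 2 of 61 member windows (3.28%) and 1.79% of all 32851 windows held. The other member with it was Stxbp3 (log2 change 0.22, interval -0.53 to 0.96, so its direction is not settled). The core was found in 17 member windows (27.9%, against 20.8%), among them those of Rab3a, Stx6, Stx1a and Cplx1. The Egr site GCGGGGGCG lay at bases 210 to 218 of the Syn2 window and at bases 267 to 275 of the Cplx1 window. It was in 4 member windows (6.56%) and in 2.91% of all windows. The variant Egr site was in none of the member windows and in 0.612% of all. AP-1 was in 6.56% of member and 7.81% of all windows. A match is a description of the letters and not a measured binding site.

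For most members the interval bounded the difference on the brightest probe set, as far as the variation among these arrays goes. The 95% interval of the log2 change lay within 1.5-fold in either direction for 25 of 41 genes (61.0%), against 56.5% of all genes, and within 2-fold for 39. The exceptions at 2-fold were Rab3a and Rab3b. The standard error depended on signal. Its median was 0.12 over the 16 genes with a mean signal of at least 2000, of which 14 were bounded within 1.5-fold, and 0.22 over the 12 tested genes under 500, of which 3 were.

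**Figure D2:**
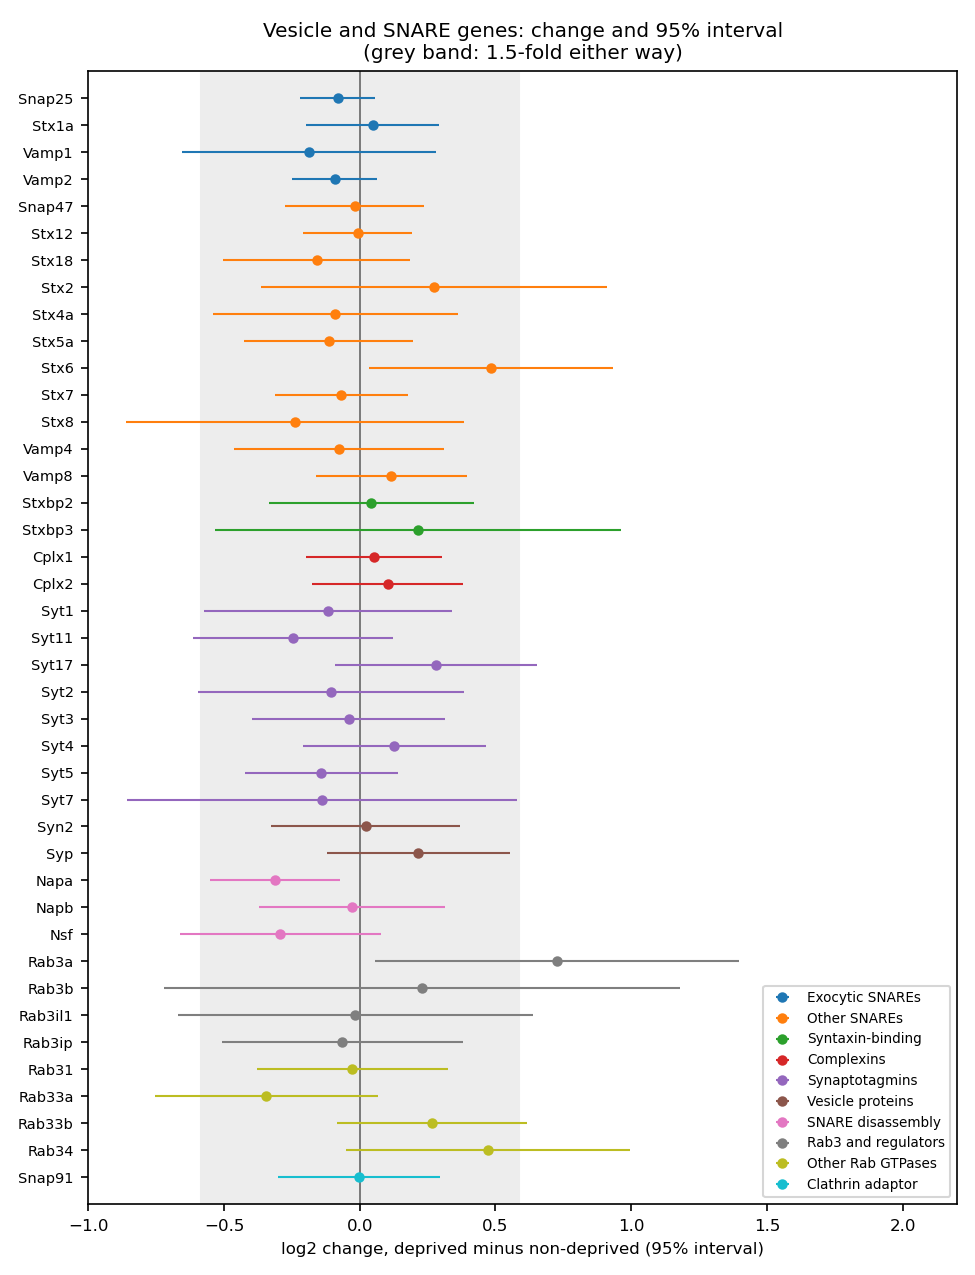
Log2 change with its 95% interval (limma, n = 3 arrays per group) for the 41 tested genes, coloured by role; the grey band marks 1.5-fold in either direction. Of these intervals 25 lie wholly inside the band, those of Napa, Rab3a and Stx6 exclude 0, and those of Rab3a and Rab3b reach highest, to 1.40 and 1.18.

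For the 4 SNAREs of transmitter release the median log2 change was -0.09, and the intervals of the 3 bright ones lay within 1.5-fold. Snap25, the plasma membrane SNARE that gives the complex a pair of its helices, read 19884, 20649 and 20953 in the non-deprived arrays and 18538, 20058 and 19578 in the deprived arrays. The groups overlapped, with means of 20495 ± 551 (SD, n = 3) and 19391 ± 777. The log2 change was -0.08, with a 95% interval of -0.22 to 0.06 (limma adjusted p = 0.967), the smallest standard error among the members. It was -0.05 without deprived replicate 1.

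Vamp2, the main vesicle SNARE of the forebrain, read 16305, 14644 and 14359 against 13878, 14480.0 and 14087, again with overlap. Its log2 change was -0.09 (interval -0.25 to 0.06). A dimmer Vamp2 probe set read 1972 ± 303 and 2193 ± 404 and had the opposite sign, 0.15 (interval -0.20 to 0.49), so the direction of the small Vamp2 difference was not the same on its probe sets. Stx1a, the syntaxin of release sites, read 4640.3, 4403 and 3591 against 3982, 4513 and 4510.5, a log2 change of 0.05 (interval -0.20 to 0.29). The deprived arrays lay inside the range of the non-deprived ones. Vamp1, the vesicle SNARE that predominates in spinal cord and brain stem, read 487, 458 and 308 against 307, 414 and 361 on an _i probe set. Its log2 change of -0.19 had an interval of -0.66 to 0.28 and is thus bounded less closely. With 1 array left out it lay between -0.07 (without non-deprived replicate 1) and -0.38 (without non-deprived replicate 3). The dim _r probe set of Vamp1 read 105 ± 41.5 and 77.2 ± 52.5 and was not tested.

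Complexins bind the SNARE complex, and syntaxin-binding proteins bind syntaxin. Cplx1, a brain complexin that clamps and assists fusion, read 4409.5, 3959 and 3548 in non-deprived arrays, against 4140.4, 4589 and 3643 (log2 change 0.05, interval -0.20 to 0.30). Cplx2, its closest relative, read 2484, 1941 and 2688 against 2496, 2423 and 2659 (0.10, interval -0.18 to 0.38). In both genes the groups overlapped, and all intervals lay within 1.5-fold. Stxbp2, a syntaxin-binding protein of mast cells, platelets and other secretory cells, had a log2 change of 0.04 (SE 0.17) on its brightest probe set and -0.21 (SE 0.21) on an _r probe set. Stxbp3, the partner of Stx4a, had 0.22 (SE 0.33, interval -0.53 to 0.96) at a mean signal of 155, close to the floor.

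Synaptotagmins fall into fast calcium sensors, slower sensors and members that bind little or no calcium. Of the 12 on the array 8 were tested, 6 with a lower and 2 with a higher mean in deprived arrays, and the median log2 change was -0.11. Syt1, the calcium sensor of fast release in most cortical synapses, read 2781, 3505 and 4446 in non-deprived arrays and 2894, 4392 and 2672 in deprived arrays. The groups overlapped fully: deprived replicate 2 stood near the highest non-deprived array and the other deprived arrays near the lowest. The log2 change was -0.12 (interval -0.57 to 0.34). Syt11, a synaptotagmin that does not bind calcium, read 1811, 2145 and 2547 against 1559.8, 2273 and 1668 (log2 change -0.25, interval -0.61 to 0.12). Deprived replicate 2 was again the highest deprived array and non-deprived replicate 3 the highest of all. Leaving out these arrays gave -0.41 and -0.12 in that order, and -0.14 was found without deprived replicate 1.

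Syt2, the fast sensor of brain stem and parvalbumin interneuron terminals, read 637, 702 and 707 against 650.1, 439 and 879. Deprived replicates 2 and 3 were the lowest and highest of the 6 arrays, and the log2 change was -0.11 (interval -0.60 to 0.38). A dimmer Syt2 probe set read 162, 265 and 319.6 against 149, 207 and 55.7, a log2 change of -0.89 (SE 0.44, adjusted p = 0.967), so the Syt2 probe sets differed by more than 0.5. On that probe set deprived replicate 3 was the lowest array, whereas on the brighter one it was the highest. Syt4, an activity-regulated synaptotagmin of dense-core and postsynaptic vesicles, read 375, 368 and 383 against 396, 391 and 449.9. Every deprived array lay above every non-deprived one, by little: the log2 change was 0.13 (interval -0.21 to 0.46), and 0.065 without deprived replicate 3.

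Syt17 also had all deprived arrays above the others, at 568, 536 and 496 against 486, 481 and 352 (0.28, SE 0.17, adjusted p = 0.967). The log2 change was 0.13 once its lowest array, non-deprived replicate 3, which had the high 18S signal, was left out. A link of the 18S signal to the Syt17 values was not tested. The remaining tested members were Syt3 at -0.04 (SE 0.16), Syt5 at -0.14 (SE 0.13) and Syt7, a slow high-affinity sensor, at -0.14 (SE 0.32).

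Vesicle proteins were represented by synaptophysin and synapsin II. Syp, an abundant membrane protein of synaptic vesicles and a common measure of synapse number, read 2970.1, 2332 and 1944 in non-deprived arrays and 3007, 2881 and 2444 in deprived arrays. The mean was higher in deprived arrays, at 2778 ± 295 against 2416 ± 518, but the groups overlapped (log2 change 0.22, interval -0.12 to 0.55, adjusted p = 0.967). The log2 change was 0.07 without non-deprived replicate 3, the lowest array for Syp, and 0.38 without non-deprived replicate 1. Syn2, which tethers vesicles in the reserve pool, read 2193, 2671 and 2293 against 2495, 2971 and 1898 (0.02, interval -0.33 to 0.37). Its deprived arrays spread wider than the non-deprived ones, on both sides of them.

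**Figure D3:**
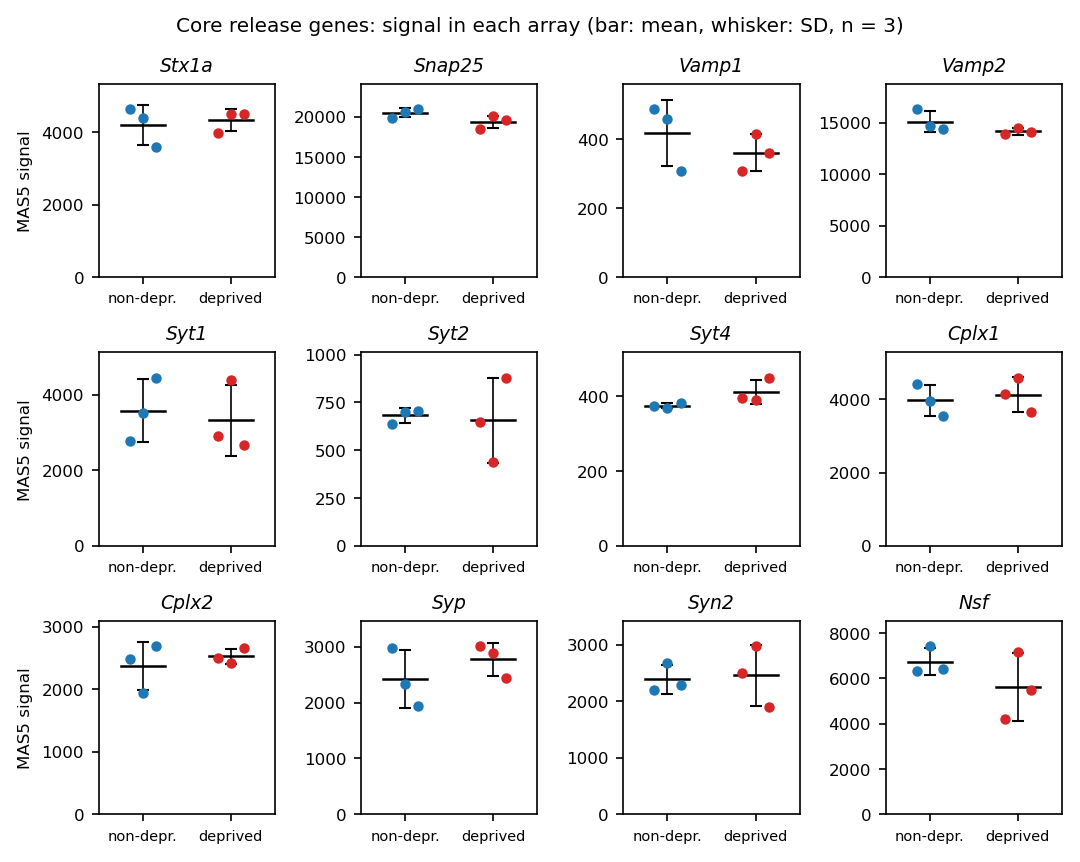
MAS5 signal (linear axis from 0, separate for each gene) in each of the 3 non-deprived (blue) and 3 deprived (red) arrays for 12 core genes of transmitter release; bars are means and whiskers SD. The groups overlap in every panel except Syt4, where deprived arrays read 391 to 449.9 and non-deprived arrays 368 to 383.

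The 3 genes of SNARE disassembly had a lower mean in deprived arrays (median log2 change -0.29), and Napa had the smallest p of all members. Napa, which encodes the adaptor alpha-SNAP that docks Nsf onto the SNARE complex, read 3081, 2569 and 2621 in non-deprived arrays and 2289, 2015 and 2339.5 in deprived arrays. All deprived arrays lay below all non-deprived ones. The means were 2757 ± 282 and 2215 ± 175, 1.24-fold apart (log2 change -0.31, interval -0.55 to -0.07), but the difference did not pass after adjustment (adjusted p = 0.949). Of the printed promoter windows, only that of Napa held the full CRE, and a link of this site to the difference was not tested.

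Nsf itself, the ATPase, read 6343, 7423 and 6433 against 4193, 7177 and 5475. Deprived replicate 2 lay within the non-deprived range and the other deprived arrays below it (log2 change -0.29, interval -0.66 to 0.08, adjusted p = 0.967). The change was -0.10 without deprived replicate 1, its lowest array, and -0.49 without deprived replicate 2, its highest deprived array. Napb, the brain-specific beta-SNAP, read 1854, 2263 and 2438 against 2148, 2569 and 1748 on an _f probe set (-0.03, interval -0.37 to 0.31). Its other probe set had 0.11 (interval -0.14 to 0.35), so Napb did not show the direction of Napa on both.

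Among Rab3 and its regulators, Rab3a had the largest difference of all members, and its non-deprived arrays spread widely. Rab3a encodes the most abundant Rab3 GTPase of brain synaptic vesicles. It read 808, 333 and 758 in non-deprived arrays and 1154, 1057 and 785 in deprived arrays. Non-deprived replicate 2 stood far below the rest, and deprived replicate 3 lay between the other non-deprived values. The means were 633 ± 261 and 998 ± 191 (log2 change 0.73, interval 0.06 to 1.40, limma adjusted p = 0.949). Without non-deprived replicate 2 the log2 change was 0.33. A second, dim Rab3a probe set read 13.6 ± 6.86 and 43.7 ± 21.5, under the floor, where signal was not shown to be above background.

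Rab3b, a close relative, read 355, 429 and 102 against 299, 277 and 323. Non-deprived replicate 3 stood far below the other arrays (log2 change 0.23, interval -0.72 to 1.18), and the interval allows a change of over 2-fold upward. Rab3ip and Rab3il1, exchange factors for Rab GTPases, had -0.06 (SE 0.20) and -0.02 (SE 0.29), and the _r probe set of Rab3ip 0.14 (SE 0.20). Rab3d, a Rab of secretory granules, was below the floor at a mean signal of 56.7.

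The SNAREs of other membranes showed 8 lower and 3 higher means among 11 tested genes, with a median log2 change of -0.07. Stx6, a syntaxin of the trans-Golgi network and endosomes, had the only unadjusted p under 0.05 in this group. It read 251, 343 and 382 in non-deprived arrays and 389, 530.2 and 455 in deprived arrays, so the groups did not overlap, although the gap between the closest arrays was small. The means were 325 ± 67.2 and 458 ± 70.7 (log2 change 0.48, interval 0.03 to 0.93, limma adjusted p = 0.949). Leaving out non-deprived replicate 1, its lowest array, gave 0.32.

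Vamp8, an endosomal and secretory SNARE, also had non-overlapping arrays, at 697, 608 and 708 against 712, 719.5 and 750.0 on an _f probe set, with a log2 change of 0.12 (interval -0.16 to 0.40). The endosomal syntaxins Stx12 and Stx7 were close to equal, at -0.01 (SE 0.09) and -0.07 (SE 0.11). Snap47, a widely expressed relative of Snap25, had -0.02 (SE 0.11). Stx5a and Stx18, syntaxins of the Golgi apparatus and endoplasmic reticulum, had -0.11 (SE 0.14) and -0.16 (SE 0.15). Stx4a, the plasma membrane syntaxin of non-neuronal exocytosis, had -0.09 (SE 0.20), Vamp4 of the trans-Golgi network -0.08 (SE 0.17) and the endosomal Stx8 -0.24 (SE 0.28). Stx2 had 0.27 (SE 0.28), with non-deprived arrays from 323 to 845 around deprived arrays from 557 to 669.8.

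The other Rab GTPases, which act in Golgi, endosomal and autophagic traffic, included the lowest change of the set. Rab33a read 558, 523 and 628 against 339, 508 and 509 (-0.34, SE 0.18, adjusted p = 0.967), without overlap. Without deprived replicate 1 the change was -0.16. Rab34 read 333, 293 and 179 against 378, 378 and 346 (0.47, SE 0.23, adjusted p = 0.967), also without overlap. The change was 0.22 once non-deprived replicate 3 (high 18S signal) was left out, and a link to that signal was not tested. Rab33b, a Golgi Rab, had the same log2 change on both of its probe sets, 0.27 (SE 0.16), and Rab31 had -0.03 (SE 0.16) and 0.15 (SE 0.21). Snap91 had -0.00 (SE 0.13).

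**Figure D4:**
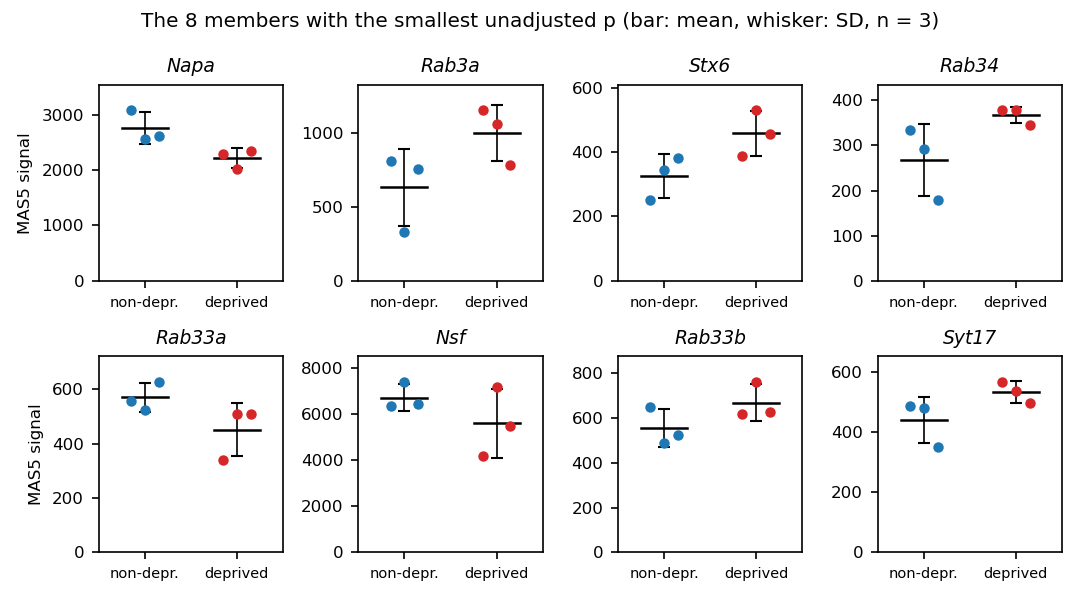
MAS5 signal (linear axis from 0, separate for each gene) in each array for the 8 members with the smallest unadjusted p, in order of p; bars are means and whiskers SD of 3 arrays. Non-deprived (blue) and deprived (red) arrays do not overlap for Napa, Stx6, Rab34, Rab33a and Syt17, and overlap for Rab3a, Nsf and Rab33b.

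Of the 14 member genes with several probe sets, 8 had more than 1 tested. In 3 of these 8 all tested probe sets had the same sign (Rab33b, Syt2 and Vamp4). The sign differed for Napb, Rab31, Rab3ip, Stxbp2 and Vamp2, all with log2 changes between -0.21 and 0.15.

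The 11 genes below the floor were Rab35, Rab3d, Snap23, Stx3, Syt6, Syt8, Syt9, Syt10, Vamp3, Vamp5 and Vamp7. Snap23, Vamp3, Vamp5 and Vamp7 are SNAREs of non-neuronal or endosomal membranes, and Stx3 serves ribbon synapses. Vamp7 lay just under the floor at a mean signal of 133.3, and Stxbp3, at 155, was the dimmest member tested. In a fit with no floor none of these passed. Syt10 read 19.0, 83.4 and 87.7 against a deprived mean of 19.3 ± 0.625 (log2 change -1.01, SE 0.44, limma adjusted p = 0.96). Syt9 read 75.0, 31.7 and 56.7 against 16.8, 34.7 and 16.8 (-0.84, SE 0.36, limma adjusted p = 0.96). The dimmer Vamp7 probe set, an _r design, read 52.8, 17.9 and 42.8 against 93.8, 159.9 and 133, a log2 change of 1.46 (SE 0.39, limma adjusted p = 0.69), while the brighter one had -0.24 (SE 0.31). At such signals values were not shown to be above background.

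**Figure D5:**
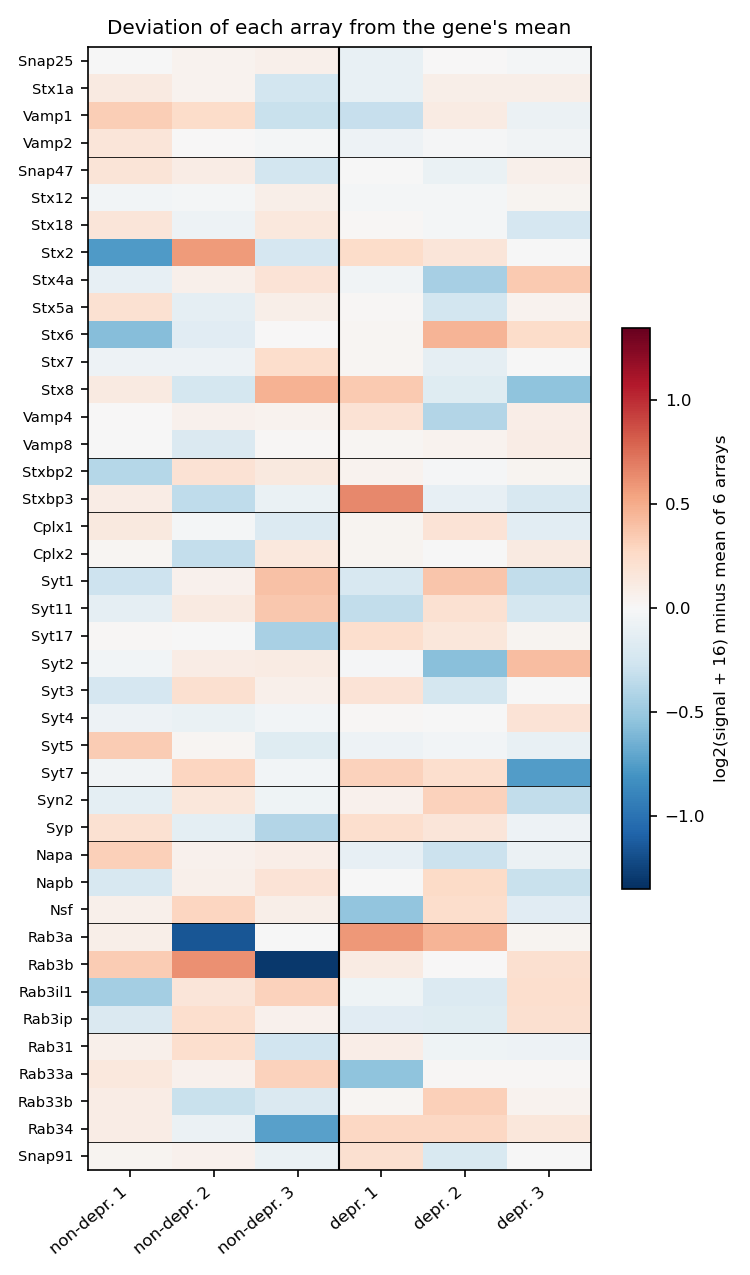
Deviation of log2(signal + 16) in each array (columns) from the mean of 6 arrays for the 41 tested genes (rows, grouped by role); red is above and blue below the gene's mean. The strongest cells are single arrays, such as non-deprived replicate 2 for Rab3a and non-deprived replicate 3 for Rab3b, and no column is uniformly red or blue.

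No array carried the members up or down as a whole. The median deviation of the 41 genes from their own means ranged from -0.01 to 0.06 across the 6 arrays. Among the deprived arrays, replicates 1, 2 and 3 were the highest for 15, 13 and 13 genes and the lowest for 10, 16 and 15. The within-group coefficient of variation of the members had a median of 14.1%, against 12.8% over all genes.

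Markers of the cells that make these transcripts were read on the same arrays. Of 11 tested pan-neuronal genes, 6 had a lower and 5 a higher mean in deprived arrays (median log2 change -0.00). Their summed signal ranged from 41810.2 to 44827 in non-deprived and from 41870.1 to 43649.8 in deprived arrays, so the groups overlapped. The 6 glutamatergic markers had a median of 0.09, with sums of 13858 to 17598 against 16151 to 17947. The 11 GABAergic markers had a median of -0.13, 8 lower and 3 higher, and their sums did not overlap, at 29434 to 31690.1 against 26037 to 26576. No tested marker of these lists was at 0. This sum adds signals of different probe sets and is weighted to the bright ones, Cck, Pvalb, Sst, Gad1 and Npy, all with a lower mean. Its markers, Cck among them, were not shown here to be confined to GABAergic cells. The largest differences were -0.42 for Npy (limma adjusted p = 0.589), -0.39 for Sst (0.260) and, upward, 0.81 for Cort (0.949), all peptides of interneurons. Vip at 0.19 and Calb2 at 0.12 also had a higher mean. None of the neuronal markers passed the threshold. Without adjustment, 4 lower and 1 higher GABAergic markers had a limma p under 0.05 (45.5%, against 5.18% of all genes). So did 1 lower pan-neuronal marker (9.09%) and 0 glutamatergic markers. The part of the lower sum of the 11 listed GABAergic markers in the vesicle and SNARE values, Syt2 and Vamp1 among them, was not tested. The median log2 change was 0.06 for 8 astrocyte, 0.10 for 6 oligodendrocyte and 0.06 for 7 microglia markers, and -0.16 for 5 of endothelium and vessel wall, none past the threshold.

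Other genes of the vesicle cycle were taken from a list of 100, by their place in the cycle. Of these 63 had a probe set, 58 were tested and none passed, 28 with a lower and 30 with a higher mean and a median log2 change of 0.01. By step of the cycle the medians were -0.00 for 10 active zone genes, -0.01 for 19 endocytosis genes, 0.07 for 11 further vesicle proteins and transporters, 0.01 for 13 subunits of the proton pump that energises filling and -0.15 for 5 presynaptic calcium channel subunits. Unadjusted p under 0.05 was seen for 3 of 58 (5.17%), against 5.18% of all genes, so the share is that of the background. The arrays of the groups did not overlap for 4 lower and 2 higher genes of the 58 (10.3%, against 10.4% of all genes), again the background share. Values of the 3 genes with an unadjusted p under 0.05 are given as a description. Ap2a2, a subunit of the clathrin adaptor complex, read 3120, 2977 and 3164 against 2594, 2536 and 2669, without overlap (log2 change -0.25, SE 0.08, limma adjusted p = 0.949). Cacna2d3, a calcium channel subunit that sets channel number at terminals, read 1176 ± 34.4 and 949 ± 105 (-0.31, SE 0.12), also without overlap. Ppfia4, a liprin of the active zone, read 120.3 ± 65.5 and 259 ± 62.2 (1.12, SE 0.41), from 51.1 to 296. Its non-deprived mean was below the floor of 134.7, and it was tested through its higher deprived arrays. The same held for Bsn, with means of 123.6 and 226 (0.70, SE 0.48). Ppfia4 and Bsn are both among the 30 with a higher mean. Dnm1, the dynamin that pinches off vesicles, read 25051 ± 2302 and 25058 ± 1017 (log2 change 0.00, SE 0.08).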

How the data were processed

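RNA from visual cortex was hybridised to 6 oligonucleotide arrays, 3 per group. The deposited values are probe set intensity on a linear scale, made by the authors with MAS5 (per the submitters' processing notes; the version is not given in the sources used here). The deposited intensity had on every array a mean of 500.3 after trimming 2% at each end. It was scaled so that these means were equal, which changed the values very little. After removal of 66 control probe sets, log2(signal + 16) of the top 60% of probe sets by mean signal (at least 134.7) was fitted with limma 3.58.1 in R 4.3.3 (eBayes with an intensity trend, Benjamini-Hochberg adjustment over 7453 probe sets). The fit was tested on simulated data. Intervals are 95%. Names came from the platform annotation, where 10855 probe sets had 1 symbol, 396 several and 1237 none, and 10839 matched RefSeq (GRCm38.p6) by Entrez ID. Genes described in full were a list of core release genes and the members with the smallest p. The members and lists were chosen with earlier results of these data known. Array number limits the precision, and no detection calls were used. Alternatives were another normalization, pseudocount, floor, variance trend, probe set rule and threshold, a replicate block, and leaving out each array. The numbers were not taken as pairs in the main fit. Same-numbered arrays had deviations correlated at -0.02, 0.003 and 0.05, and other combinations at -0.098 to 0.102. These values cannot show whether same-numbered arrays share animals.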

Additional observations from a re-analysis of the deposited data

How the results depend on the processing

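No vesicle or SNARE gene passed an adjusted p under 0.05 in any of 15 alternatives (limma), including no signal floor, a floor at the top 40% and a threshold of 0.10. Over all probe sets the count of 13 was 9 to 14 in the others and 7 to 10 with 1 array left out, with the lowest value, 7, when non-deprived replicate 2 was dropped and 8 when either array numbered 3 was dropped. With the replicate block it was 10, with 0 members, and the block changed no call among them. Standard errors under the block were smaller for some members (Nsf 0.11, against 0.17) and larger for others (Rab33b 0.17, against 0.16). The members' median log2 change moved from -0.03 to -0.0018 when a gene's probe sets were averaged, and lay between -0.038 and 0.026 with 1 array left out (highest when non-deprived replicate 2 was dropped). Averaging probe sets also turned Napb to 0.040 and Vamp2 to 0.028. It moved Syt2 from -0.11 to -0.50, Vamp1 from -0.19 to -0.32 and Rab3a from 0.73 to 0.85. For Vamp1 and Rab3a the average took in a probe set under the floor. With 1 array left out the log2 change took both signs for Cplx1 (-0.027 to 0.14), Cplx2 (-0.034 to 0.20), Napb (-0.16 to 0.11), Stx1a (-0.062 to 0.12), Syn2 (-0.13 to 0.19), Syt1 (-0.34 to 0.053) and Syt2 (-0.34 to 0.15). The cause was not tested. Of the 21 genes described in full, 13 kept their sign in all alternatives. Apart from these, precision was lowest for dim genes: of the 12 tested members under a signal of 500, 3 had intervals within 1.5-fold.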
